A study of Arabidopsis thaliana with 12 samples.

Results

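Glutathione transferases join the tripeptide glutathione to reactive, electrophilic compounds, and the conjugates are carried into the vacuole by ABC transporters of the ABCC family. The tau class, whose genes are named GSTU, is a plant class of these enzymes with a serine in the active site. Its genes are known for their induction by oxidised lipids, herbicide safeners and other reactive compounds. The 10 tau genes described here were taken by locus from a table of 36917 loci: GSTU1 (AT2G29490), GSTU2 (AT2G29480), GSTU3 (AT2G29470), GSTU4 (AT2G29460), GSTU5 (AT2G29450), GSTU11 (AT1G69930), GSTU12 (AT1G69920), GSTU19 (AT1G78380), GSTU24 (AT1G17170) and GSTU25 (AT1G17180). The members were named with earlier results of these data known.

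The 12 libraries were made from total RNA of Arabidopsis thaliana, 6 from the double mutant flu/ex1 and 6 from the triple mutant flu/ex1/ydl1, so that the flu and ex1 mutations are common to every library and neither wild-type plants nor ydl1 alone were compared. The flu mutant accumulates protochlorophyllide in darkness and releases singlet oxygen in the plastid when light returns, and EX1 is a plastid protein that relays this signal to the nucleus. Plants were grown in soil under continuous light until 6 d old, placed in darkness for 4 h and collected at 0, 30 or 60 min of light. The series asks whether YDL1 restrains the changes in expression that follow singlet oxygen. The alleles, the tissue and the origin of the 2 libraries in each group (separate plants or not) are not given in the sources used here, so p-values measure only the spread between these libraries, which may be technical.

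The light time stands in 2 places that disagree. It is coded in the name of each deposited file and again in the sample label, and the times differ for 8 of the 12 libraries. The file-name time was used throughout, and each library is called by its file-name genotype, time and replicate number. Results with the labelled times stand beside the main results. Total counts ran from 7859611 to 11591060 per library, and 63.3% to 71.7% of each library fell on plastid loci. Levels are given as CPM, the count of a locus relative to the size of its library, with library sizes scaled by the trimmed mean of M values (TMM). FLU lay between 45.2 and 56.4 CPM in flu/ex1 and between 29.5 and 59.8 CPM in flu/ex1/ydl1, and EX1 between 2.91 and 5.22 CPM and between 2.09 and 5.36 CPM, which do not show the point at which either gene is disrupted. The transcript of YDL1, the gene that separates the genotypes, was not analysed here, so the genotype labels were not checked by it. The 5 markers of green shoot (Rubisco, Rubisco activase and light-harvesting genes) summed to between 7320 and 11600 CPM, 4 root markers to between 1.27 and 7.03 CPM and 3 seed storage markers to between 0.141 and 1.79 CPM. Bulk RNA cannot tell fewer cells of a type from less RNA per cell.

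The members form small clusters on the chromosomes of the TAIR10.1 assembly, from whose annotation all positions here are taken. GSTU5 (chr2:12624403-12625790), GSTU4 (chr2:12626478-12627891), GSTU3 (chr2:12628422-12629640), GSTU2 (chr2:12630198-12631321) and GSTU1 (chr2:12631341-12632538) follow each other on the minus strand of chromosome 2. GSTU12 (chr1:26334250-26335630) and GSTU11 (chr1:26337481-26338818) are neighbours on the minus strand of chromosome 1, GSTU24 (chr1:5869543-5870883) and GSTU25 (chr1:5872024-5873124) are neighbours on its plus strand, and GSTU19 (chr1:29486387-29488007) stands apart from these on its minus strand. Each gene has 2 exons. Over the 45 pairs of members, identity of the coding sequences ran from 57.4% to 85.9%. The closest pair was GSTU1 and GSTU2 at 85.9%, followed by GSTU2 and GSTU4 at 84.0%, which share the longest identical stretch, 42 bases. GSTU24 and GSTU25 were 80.5% identical, while GSTU11 and GSTU12 were 64.0% identical. How reads that match more than 1 locus were counted is not given in the sources used here, so counts of these near copies are uncertain. GSTU2 also overlaps AT2G29485 on the opposite strand by 849 bases, and that locus had between 0 and 4 counts per library. Its counts nearly matched those of GSTU2, with 2 and 4 against 2 and 5 in the flu/ex1/ydl1 60 min libraries. Whether the same reads were counted at both loci was not tested, so they cannot be assigned to GSTU2 alone.

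Promoters are shown because TGACG is the core of the as-1 element, which TGA transcription factors bind in stress-induced glutathione transferase genes. The 4 windows below hold the 250 bases before the annotated start, read 5′ to 3′ on the strand of the gene from RefSeq's TAIR10.1 assembly. They lie at chr2:12632539-12632788 for GSTU1, chr2:12629641-12629890 for GSTU3, chr2:12627892-12628141 for GSTU4 and chr1:5871774-5872023 for GSTU25, and no other annotated gene reaches into them. Capitals mark TGACG on either strand, as TGACG or CGTCA.
GSTU1: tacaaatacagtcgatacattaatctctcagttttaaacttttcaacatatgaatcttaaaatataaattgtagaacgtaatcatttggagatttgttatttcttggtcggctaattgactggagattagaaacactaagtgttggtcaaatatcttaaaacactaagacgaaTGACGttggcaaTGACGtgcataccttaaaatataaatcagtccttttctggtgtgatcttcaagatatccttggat
GSTU3: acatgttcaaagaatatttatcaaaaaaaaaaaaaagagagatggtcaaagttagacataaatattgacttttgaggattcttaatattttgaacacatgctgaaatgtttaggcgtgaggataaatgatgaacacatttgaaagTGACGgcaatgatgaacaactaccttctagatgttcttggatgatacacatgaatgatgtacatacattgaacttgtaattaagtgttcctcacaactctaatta
GSTU4: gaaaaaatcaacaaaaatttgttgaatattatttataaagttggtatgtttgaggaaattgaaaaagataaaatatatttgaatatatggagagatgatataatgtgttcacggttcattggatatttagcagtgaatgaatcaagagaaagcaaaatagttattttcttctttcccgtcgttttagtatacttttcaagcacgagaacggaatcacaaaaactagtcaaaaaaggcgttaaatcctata
GSTU25: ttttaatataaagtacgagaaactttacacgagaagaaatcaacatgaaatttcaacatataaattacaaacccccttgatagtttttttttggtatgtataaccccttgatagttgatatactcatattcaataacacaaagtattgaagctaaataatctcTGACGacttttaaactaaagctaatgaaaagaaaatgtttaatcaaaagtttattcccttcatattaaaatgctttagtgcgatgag
GSTU1 holds TGACG at 2 places whose first bases are 77 and 65 bases before the start, GSTU3 at 105 bases and GSTU25 at 87 bases, and the GSTU4 window holds none. From 250 bases before to 50 bases after the start, TGACG was found on either strand in 7 of the 10 members and in 23.07% of 27443 promoters. In the 250 bases before the start alone it was found in 6 of 10 members and in 18.58% of promoters. Among the 6 are GSTU5, with its match 142 bases before the start, and GSTU24, at 169 bases. Other annotated genes, AT2G29452 and AT1G17160, reach into these windows and leave only the nearest 63 and 106 bases free, which hold neither match. GSTU4 and GSTU19 hold no match in their 250 bases. Of GSTU1, GSTU4, GSTU5, GSTU19 and GSTU24, which had enough counts for a test, only GSTU1 thus holds TGACG in bases free of other genes. The share over all promoters was not trimmed for neighbouring genes either. GSTU1 was the only member with TGACG more than once in the longer window, as had 4.44% of promoters. The spacing seen in GSTU1, TGACGNNNNNNNTGACG, was searched for after its promoter had been read and was found in 1 member and in 21 promoters, or 0.077%. The W-box core TTGAC, which overlaps TGACG in the string TTGACG, was found in 8 members and 50.48% of promoters, the G-box CACGTG in 0 members and 7.68%, and the GCC-box GCCGCC in 1 member and 2.57%, all on both strands of the longer window. These matches describe letters in a window and not sites in use.

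The members lay at very different levels. Per kilobase of exon, GSTU19 held 69.7% to 89.6% and GSTU5 8.87% to 27.2% of the summed level of the 10 genes in every library. GSTU19 encodes an abundant tau enzyme with broad conjugating activity. Its group means ran from 124 to 269 CPM per kilobase and those of GSTU5 from 16.5 to 72.7 CPM per kilobase. The other 8 genes together had between 6 and 482 counts in a library. Of the 10 members, GSTU1, GSTU4, GSTU5, GSTU19 and GSTU24 had enough counts to be tested, and GSTU2, GSTU3, GSTU11, GSTU12 and GSTU25 had not. GSTU5 and GSTU19 reached the level asked for by that filter in all 12 libraries, and GSTU1, GSTU4 and GSTU24 reached it in 5, 3 and 4 libraries besides those of flu/ex1/ydl1 at 60 min. For each of the 10 genes the highest count was found in 1 library, flu/ex1/ydl1 60 min replicate 2, which held 18.4% of all GSTU19 counts and 95.7% of all GSTU11 counts. These are raw counts, and the scaled size of that library was 13149105, against 5596223 for its replicate. In CPM, GSTU2 was higher in flu/ex1 30 min replicate 2 (0.392 against 0.38).

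**Figure D1:**
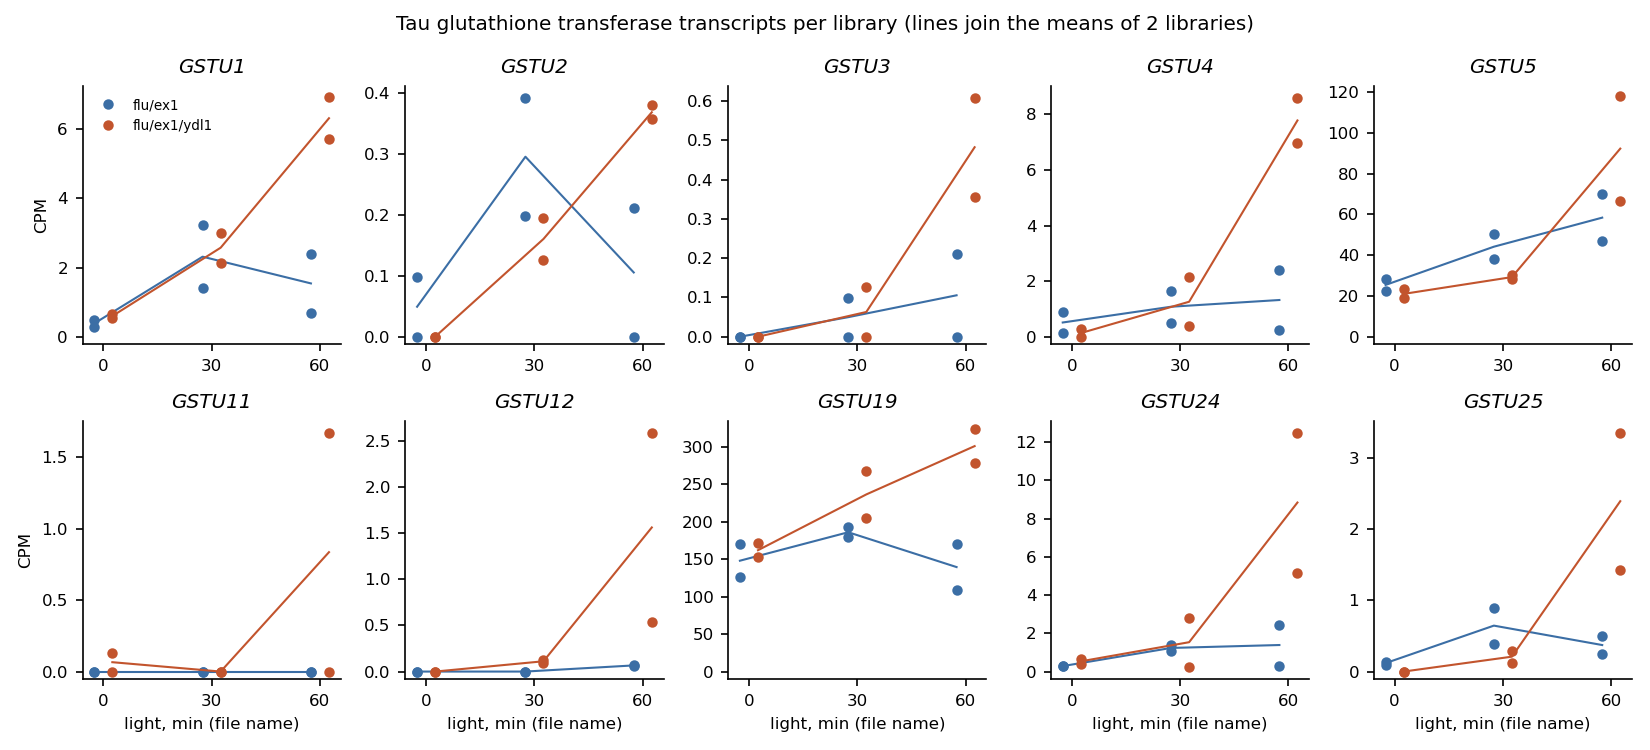
Level of each of the 10 genes in CPM (vertical axis, linear, a separate scale for each gene) against light time from the file name in minutes, with 1 point for each of the 12 libraries and lines through the means of 2 libraries. GSTU1, GSTU4, GSTU19 and GSTU24 lie higher in both flu/ex1/ydl1 libraries at 60 min than in every other library. On few counts so do GSTU3, GSTU12 and GSTU25, although the 2 libraries of GSTU12 are far apart (0.536 and 2.59 CPM). GSTU11 is high in 1 of them and at 0 in the other.

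After 60 min of light the tested tau genes of flu/ex1/ydl1 stood above their dark level, from 0.89 log2 units for the abundant GSTU19 to several log2 units for the scarce GSTU1, GSTU4 and GSTU24. GSTU1 measured 0.542 and 0.654 CPM in the dark libraries, 3.01 and 2.14 CPM at 30 min and 5.72 and 6.92 CPM at 60 min. The 3 times do not overlap, and GSTU1 rose between 0 and 60 min by 3.39 ± 0.60 (log2 fold change ± SE, n = 2 libraries per group, edgeR adjusted p = 0.000686). GSTU4 had 0 and 0.262 CPM in darkness, 0.377 and 2.14 CPM at 30 min and 6.97 and 8.59 CPM at 60 min. It rose (edgeR adjusted p = 0.00152), and since the dark group held only 2 counts against 152 at 60 min, the size is given as the ratio of the pooled levels, 60.9 with a 95% counting interval of 16.6 to 508. Intervals and floors cover counting error only.

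GSTU24, which with GSTU25 is known to conjugate the explosive TNT, measured 0.677 and 0.392 CPM in darkness, 0.251 and 2.82 CPM at 30 min and 5.18 and 12.5 CPM at 60 min in flu/ex1/ydl1. Its 30 min libraries straddle the dark level, whereas both 60 min libraries lie above all others, and the rise from 0 to 60 min was 4.08 ± 0.85 (adjusted p = 0.00297). GSTU5 measured 18.8 and 23.2 CPM in darkness, 28.1 and 30.4 CPM at 30 min and 66.5 and 118 CPM at 60 min, and rose by 2.14 ± 0.31 (adjusted p = 0.000124). The times do not overlap, although the 60 min libraries are far apart. GSTU19 measured 153 and 171 CPM in darkness, 205 and 268 CPM at 30 min and 278 and 324 CPM at 60 min. This is the smallest of the 5 changes, 0.89 ± 0.28 (adjusted p = 0.045).

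Thus 5 of the 5 tested members were called higher and 0 lower at 60 min than in darkness in flu/ex1/ydl1, against 9.6% of the 17879 tested loci called higher and 3.17% lower. Their median log2 fold change was 3.39, and that of all tested loci -0.02. Without flu/ex1/ydl1 60 min replicate 2, GSTU1 (log2 3.23, adjusted p = 0.00612), GSTU4 (5.58, adjusted p = 0.00724) and GSTU5 (1.66, adjusted p = 0.00158) kept their edgeR call, and GSTU24 (3.25, adjusted p = 0.051) and GSTU19 (0.78, adjusted p = 0.17) lost it. Without flu/ex1/ydl1 0 min replicate 3 the same pair of calls was lost, with an adjusted p of 0.0561 for GSTU24 and 0.133 for GSTU19. GSTU19 was not called in 6 of the 12 fits that leave out a library, the others being those without flu/ex1/ydl1 0 min replicate 1 (0.85, adjusted p = 0.186), flu/ex1 30 min replicate 2 (0.89, adjusted p = 0.067), flu/ex1 30 min replicate 3 (0.93, adjusted p = 0.0542) or flu/ex1/ydl1 30 min replicate 3 (0.89, adjusted p = 0.0536). The 4 root markers summed to 1.70 to 2.44 CPM in the dark and 2.66 to 6.43 CPM in the 60 min libraries of flu/ex1/ydl1, with 3 of the 4 at 0 in both dark libraries and 0 of them at 60 min, and their part in the result was not tested.

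The step from 30 to 60 min was also tested alone. Between 30 and 60 min in flu/ex1/ydl1 by file-name time the fitted change was above 0 in all 5 tested members (with labelled times it was below 0 in 4 of them), and GSTU5 alone was called, with a rise of 1.66 ± 0.31 (adjusted p = 0.016), where 0.537% of loci were called higher. GSTU24 changed by 2.49 ± 0.69 (adjusted p = 0.146) and GSTU4 by 2.55 ± 0.73 (adjusted p = 0.164), which did not pass. The GSTU5 call was lost without flu/ex1/ydl1 30 min replicate 1 (adjusted p = 0.285), 30 min replicate 3 (adjusted p = 0.142) or 60 min replicate 2 (adjusted p = 0.167), and GSTU24 was called without 60 min replicate 1 (2.99, adjusted p = 0.0408). From 0 to 30 min, 0 of 5 members were called by edgeR, 2 had an unadjusted p below 0.05 and DESeq2 called 0, where 5.39% of loci were called by edgeR. GSTU1 was nearest the threshold at 2.07 ± 0.65 (adjusted p = 0.0838). GSTU4 stood at 3.20 ± 1.39 (adjusted p = 0.268), a larger estimate with a wider error. The others were at 1.59 ± 1.01 for GSTU24 (adjusted p = 0.494), 0.54 ± 0.28 for GSTU19 (adjusted p = 0.367) and 0.48 ± 0.31 for GSTU5 (adjusted p = 0.497).

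In flu/ex1, the double mutant, no tested member passed the threshold in edgeR at either light time. GSTU1 measured 0.277 and 0.492 CPM in darkness, 3.23 and 1.40 CPM at 30 min and 0.694 and 2.39 CPM at 60 min, so that the light libraries lie above the dark ones with the later time no higher than the earlier. Its change was 2.50 ± 0.68 at 30 min (adjusted p = 0.137) and 1.89 ± 0.69 at 60 min (adjusted p = 0.221). GSTU4 measured 0.138 and 0.886 CPM, 1.66 and 0.498 CPM, and 0.252 and 2.39 CPM at the 3 times, which overlap throughout. GSTU24 measured 0.277 and 0.295 CPM in darkness, 1.37 and 1.10 CPM at 30 min and 0.316 and 2.46 CPM at 60 min. The change of GSTU24 from 0 to 60 min was 2.19 ± 1.09 (adjusted p = 0.368).

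GSTU5 measured 28.4 and 22.4 CPM in darkness, 50.4 and 37.9 CPM at 30 min and 46.8 and 70.0 CPM at 60 min in flu/ex1. The light libraries all lie above the dark ones, and the change from 0 to 60 min, 1.21 ± 0.30, missed the threshold (adjusted p = 0.0603). With the replicate number as a block it passed (1.57 ± 0.25, adjusted p = 0.00663), although the numbers were not found to pair the libraries. GSTU19 measured 170 and 126 CPM, 193 and 179 CPM, and 109 and 170 CPM, with no change past the spread (-0.09 ± 0.28 from 0 to 60 min, adjusted p = 0.917). In edgeR 0 of 5 members were called from 0 to 60 min, where 1.03% of loci were called higher and 0.341% lower. At an unadjusted p below 0.05 there were 2 members, and DESeq2 called 1, GSTU5. From 0 to 30 min 0 of 5 were called against 0.649% of loci, 2 had an unadjusted p below 0.05 and DESeq2 called 0 of the 2 to which it gave an adjusted p. From 30 to 60 min 0 of 5 were called against 0.0% of loci, 0 had an unadjusted p below 0.05 and DESeq2 called 0 of 2.

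The genotypes were then compared at each time, which asks directly how the ydl1 mutation moves these genes on the flu/ex1 background. At 60 min GSTU1, GSTU4, GSTU19 and GSTU24 were higher in flu/ex1/ydl1. In each of them both triple mutant libraries lay above both double mutant libraries in CPM. How many loci separate likewise was not counted, so this order is description only. For GSTU19 it holds only with scaled library sizes. Unscaled, GSTU19 had 1557 of 7954268 counts in flu/ex1/ydl1 60 min replicate 1 and 2415 of 11591060 in flu/ex1 60 min replicate 3. GSTU4 averaged 7.78 ± 1.15 CPM in the triple and 1.32 ± 1.51 CPM in the double mutant (SD, n = 2 each), a difference of 2.59 ± 0.69 (log2 ± SE, adjusted p = 0.0213). GSTU24 differed by 2.75 ± 0.67 (adjusted p = 0.0109) and GSTU1 by 2.06 ± 0.47 (adjusted p = 0.00648). GSTU19 averaged 301 ± 32.1 CPM against 139 ± 43.1 CPM, a difference of 1.11 ± 0.28 (adjusted p = 0.0144). GSTU5 differed by 0.67 ± 0.30 (adjusted p = 0.202), and its genotypes overlap at 46.8 and 70.0 CPM in the double and 66.5 and 118 CPM in the triple mutant.

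At 60 min 4 of 5 tested members were therefore called higher and 0 lower, against 8.53% of loci higher and 1.33% lower, with a median of 2.06 over the 5 and -0.05 over all tested loci. The count fell to 0 when either of 2 libraries was left out. Without flu/ex1/ydl1 60 min replicate 2, the edgeR values were 1.90 for GSTU1 (adjusted p = 0.051), 1.00 for GSTU19 (adjusted p = 0.058), 2.42 for GSTU4 (adjusted p = 0.0871) and 1.92 for GSTU24 (adjusted p = 0.167). Without flu/ex1 60 min replicate 1 they were 1.41 for GSTU1 (adjusted p = 0.122), 0.83 for GSTU19 (adjusted p = 0.261), 1.71 for GSTU4 (adjusted p = 0.22) and 1.90 for GSTU24 (adjusted p = 0.144). All these estimates remained above 0. Each of these fits leaves a lone library in a group. Loci outside the members were still called in both fits, so the loss was not shared by all loci. Calls over all loci fell less without flu/ex1/ydl1 60 min replicate 2 than without flu/ex1 60 min replicate 1. The cause of the members' loss was not tested. Without flu/ex1 60 min replicate 3 the values were larger, at 3.18 for GSTU1 (adjusted p = 0.00152), 4.89 for GSTU4 (adjusted p = 0.00267), 1.47 for GSTU19 (adjusted p = 0.0168) and 4.81 for GSTU24 (adjusted p = 0.0021). Without flu/ex1/ydl1 60 min replicate 1, GSTU5 was called too (1.07, adjusted p = 0.0321). DESeq2 called 2 of the 4, GSTU1 and GSTU19. The scaling factor of the library sizes was 0.705 and 1.197 in the flu/ex1/ydl1 60 min libraries and 1.377 and 1.23 in those of flu/ex1. Size factors of DESeq2 in place of TMM were among the alternatives, and the result without such scaling was not tested.

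**Figure D2:**
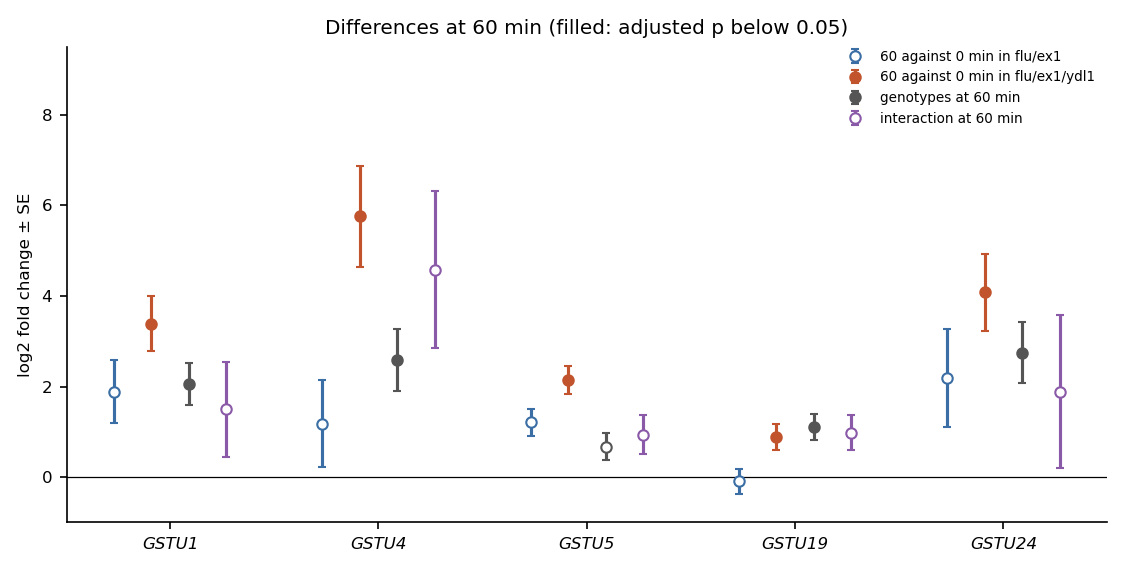
Fitted log2 fold change (vertical axis) of the 5 tested genes for light in each genotype, for flu/ex1/ydl1 against flu/ex1 at 60 min, and for the interaction, with bars of 1 SE and filled points where the edgeR adjusted p is below 0.05. Light at 60 min in flu/ex1/ydl1 gives filled points for all 5 genes, from 0.89 to 5.76, and the interaction for none.

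Between the genotypes no tested member was called in darkness or at 30 min. At 0 min 0 of 5 members were called against 0.0112% of loci, with 0 at an unadjusted p below 0.05 and 0 by DESeq2. The scarce GSTU4 had 10 counts in flu/ex1 and 2 in flu/ex1/ydl1, and GSTU19 differed by 0.13 ± 0.28 (edgeR adjusted p = 0.99). At 30 min 0 of 5 were called against 3.92% of loci, with 0 at an unadjusted p below 0.05 and 0 by DESeq2. GSTU5 was the member that pointed the other way, at 50.4 and 37.9 CPM in flu/ex1 and 28.1 and 30.4 CPM in flu/ex1/ydl1, a difference of -0.59 ± 0.30 (adjusted p = 0.374).

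A response called in 1 genotype and not in the other is not shown to differ, so the difference of the light responses was tested itself. At 60 min the response of every tested member was estimated larger in flu/ex1/ydl1, and 0 of 5 differences were called where 3.26% of loci were. GSTU4 differed by 4.58 ± 1.73 (adjusted p = 0.225), GSTU19 by 0.98 ± 0.39 (adjusted p = 0.275), GSTU5 by 0.94 ± 0.43 (adjusted p = 0.381), GSTU1 by 1.50 ± 1.05 (adjusted p = 0.664) and GSTU24 by 1.89 ± 1.68 (adjusted p = 0.767). The dark groups of GSTU4 held only 2 counts in flu/ex1/ydl1 and 10 in flu/ex1, so the size of its difference is not fixed. Of the 5 differences 3 had an unadjusted p below 0.05, and DESeq2 called 0. At 30 min 0 of 5 differences were called against 0.117% of loci, 0 had an unadjusted p below 0.05 and DESeq2 called 0 of 2.

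The 5 members with too few counts for the test are given by their counts. GSTU25, the neighbour of GSTU24, had 0 counts in both dark flu/ex1/ydl1 libraries, 1 and 3 at 30 min and 8 and 44 at 60 min. Its pooled level at 60 min was 13.9-fold a floor of 3 counts over the dark group. Such ratios to a floor leave out the counting error of the 60 min level, so they are not lower limits. In flu/ex1 it had 1 and 1, 4 and 9, and 4 and 7 counts. Both genotypes therefore held reads of GSTU25 at 60 min, at a ratio of 7.58 with an interval of 3.91 to 16.1. GSTU12 had 0 counts in the dark libraries of flu/ex1/ydl1, 1 and 1 at 30 min and 3 and 34 at 60 min. Its pooled level at 60 min was 9.89-fold the floor. It had 2 counts in total over the 6 flu/ex1 libraries. GSTU11 had 22 counts in flu/ex1/ydl1 60 min replicate 2, 1 count in 1 dark library of that genotype and 0 counts in the other 10 libraries. Its replicate at the same genotype and time was among those at 0, so the 2 libraries of that group disagree.

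GSTU2 and GSTU3, which lie between GSTU1 and GSTU4 on chromosome 2, were barely detected. GSTU2, whose reads cannot be told from those of the overlapping AT2G29485, had 20 counts in all. It had 0 in the dark and 2 and 5 at 60 min in flu/ex1/ydl1, a pooled level of 1.87-fold the floor. It had 4 and 2 counts at 30 min and 0 and 3 at 60 min in flu/ex1. GSTU3 had 15 counts in all, of which 2 and 8 fell in the flu/ex1/ydl1 libraries at 60 min. Their pooled level was 2.67-fold the dark floor. When the filter on low counts was dropped, 5.64% of the 31165 loci then tested were called higher in flu/ex1/ydl1 than in flu/ex1 at 60 min. Among them were GSTU12 (log2 4.41, edgeR adjusted p = 0.000481), GSTU25 (2.70, adjusted p = 0.000681) and GSTU11 (adjusted p = 0.00504). GSTU11 had 22 counts against 0, a pooled level of 11.8-fold the floor of flu/ex1. The GSTU11 call rests on 1 library.

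With the labelled times, the same counts give other groups. The library flu/ex1/ydl1 60 min replicate 2 carries a label of 30 min, and the 2 libraries labelled flu/ex1/ydl1 30 min then held 12.5 and 0.392 CPM of GSTU24, 6.92 and 0.654 CPM of GSTU1 and 8.59 and 0.262 CPM of GSTU4. Those labelled 60 min held 2.82 and 5.18 CPM of GSTU24. In the labelled groups 0 of 5 members were called by edgeR in each of the 11 comparisons. For the genotypes at 60 min and for flu/ex1/ydl1 from 0 to 60 min, 0.0% of loci were called. In each of these 1 member had an unadjusted edgeR p below 0.05, GSTU19 and GSTU4. For flu/ex1/ydl1 from 0 to 30 min 3 of 5 members had such a p, as had 1070 of 17879 loci. For flu/ex1/ydl1 from 0 to 60 min GSTU24 stood at 3.06 and GSTU5 at 1.04 (adjusted p = 0.892 for both). For the genotypes at 60 min GSTU24 stood at 2.30 ± 1.26 (adjusted p = 0.368) and GSTU19 at 0.86 ± 0.35 (adjusted p = 0.24).

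In 4 libraries the label and the file name give the same time, 1 each of both genotypes at 0 and 60 min. Among them GSTU1 stood at 5.72 CPM in flu/ex1/ydl1 at 60 min against 0.542 CPM in its dark library and 0.694 CPM in flu/ex1 at 60 min. GSTU19 stood at 278 CPM against 153 and 109 CPM, and GSTU24 at 5.18 against 0.677 and 0.316 CPM. The log2 differences between genotypes at 60 min were 2.73 for GSTU1, 3.98 for GSTU4, 0.50 for GSTU5, 1.35 for GSTU19 and 3.38 for GSTU24, with no replicate check. These libraries are part of the 12 and so give no independent check.

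**Figure D3:**
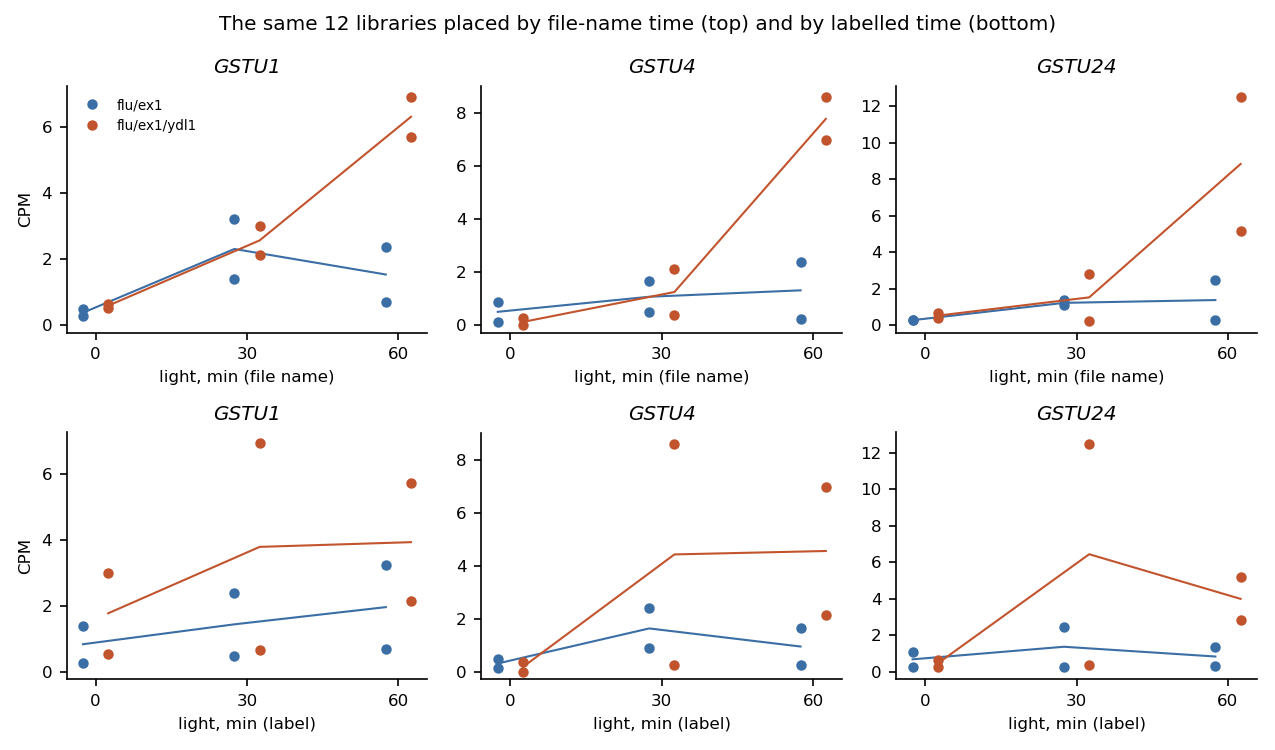
Level in CPM (vertical axis, linear) of GSTU1, GSTU4 and GSTU24 in the same 12 libraries against light time in minutes, placed by the file name in the upper row and by the sample label in the lower row, with lines through the means of 2 libraries. The library with 12.5 CPM of GSTU24 stands at 60 min above and at 30 min below, beside 1 at 0.392 CPM.

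The tested members varied together across libraries. Pearson's r of log2 CPM over the 12 libraries, which share genotypes, times and depth, ran from 0.51 for GSTU5 and GSTU19 to 0.89 for GSTU4 and GSTU24. Among 16278 loci outside the class, those most like GSTU1 were OCT5 (r = 0.966), an organic cation transporter, NAC032 (0.962), a NAC transcription factor, and TSB1 (0.961), a subunit of tryptophan synthase. Those most like GSTU4 were NAC13 (0.962), a membrane-tethered NAC factor of the mitochondrial stress response, and AT5G54170 and AT5G54165 (0.941 each). GSTU24 was most like CYP81D8 (0.935), a cytochrome P450 gene, AT4G25660 (0.933) and the Nudix hydrolase gene NUDT21 (0.926). GSTU5 was most like AT3G04685 (0.961), the heat-induced coactivator gene MBF1C (0.94) and AT5G43450 (0.936), and GSTU19 like AT2G08340 (0.977), AT4G25390 (0.968) and AT1G21520 (0.965).

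The other tau genes were followed as a list. Over all tested loci, 9.6% were called higher from 0 to 60 min in flu/ex1/ydl1 and 1.03% in flu/ex1. Between genotypes at 60 min 8.53% were called higher and 1.33% lower, and 3.26% were called in the interaction at 60 min. The counts of this list and those that follow stand against these shares. Of these 18 genes 11 were tested, and in flu/ex1/ydl1 3 rose and 0 fell from 0 to 60 min, with a median of 0.39. These were GSTU17 (1.66 ± 0.31, adjusted p = 0.00117), known from light and drought signalling, GSTU13 (1.38 ± 0.28, adjusted p = 0.00236), which acts in indole glucosinolate metabolism, and GSTU7 (2.73 ± 0.73, adjusted p = 0.0184). In flu/ex1 GSTU17 rose as well (1.93 ± 0.30, adjusted p = 0.00291) and the other 10 were not called. Between genotypes at 60 min GSTU13 (1.71 ± 0.28, adjusted p = 0.000356) and GSTU7 (2.85 ± 0.71, adjusted p = 0.0129) were higher in flu/ex1/ydl1, and GSTU13 was called in the interaction too (1.59 ± 0.40, adjusted p = 0.0343).

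Of 13 phi class genes 10 were tested, and 4 rose and 0 fell from 0 to 60 min in flu/ex1/ydl1, with a median of 0.41. They were GSTF8, whose promoter is a classic stress-induced one (2.17 ± 0.25, adjusted p = 1.47e-05), GSTF7 (3.26 ± 0.44, adjusted p = 5.94e-05), GSTF2 (1.44 ± 0.24) and GSTF6 (1.39 ± 0.34), an enzyme of camalexin synthesis. The same 4 genes were higher in flu/ex1/ydl1 than in flu/ex1 at 60 min, and 0 were called in flu/ex1. Of 11 genes of other classes 10 were tested, with 2 rises, where 9.6% of all tested loci were called higher. The 2 were the dehydroascorbate reductase gene DHAR2 (1.75 ± 0.31, adjusted p = 0.000775) and the lambda gene GSTL1, which had 1 count in the dark and 35 at 60 min (adjusted p = 0.00568).

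The genes that make, reduce, move and degrade glutathione were followed as a list of 12, all tested. From 0 to 60 min in flu/ex1/ydl1 7 rose and 0 fell, with a median of 1.17. The vacuolar conjugate transporter genes ABCC3 (3.08 ± 0.27, adjusted p = 1.53e-06) and ABCC2 (2.17 ± 0.30, adjusted p = 8.06e-05) were among them, as was GGT1, a gamma-glutamyl transpeptidase gene (2.90 ± 0.28, adjusted p = 3.52e-06). In flu/ex1 the 1 call was GGCT2;1, a gene of cytosolic glutathione breakdown (1.88 ± 0.44, adjusted p = 0.0453). GGCT2;1 was also the 1 gene of the list that was lower in flu/ex1/ydl1 than in flu/ex1 at 60 min (-1.67 ± 0.43, adjusted p = 0.0176), while 5 were higher.

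Of 17 listed genes of the response to electrophiles and foreign compounds 2 were set aside because the reference does not give their symbols. Of the other 15, all tested, 13 rose and 0 fell from 0 to 60 min in flu/ex1/ydl1, with a median of 4.80. OPR1, an oxophytodienoate reductase gene, rose from 19.4 and 20.2 CPM in darkness to 267 and 367 CPM (4.00 ± 0.36, adjusted p = 1.59e-06). AT4G01870 rose by 5.83 ± 0.53 (adjusted p = 1.73e-06), the cytochrome P450 gene CYP81D11 by 5.66 ± 0.67 (adjusted p = 1.71e-05). The alkenal reductase gene AER rose by 3.19 ± 0.36 (adjusted p = 9.45e-06). In flu/ex1 1 of the 15 was called, CYP72A15 (1.23, adjusted p = 0.0278), with a median of 1.13, and 4 of 15 were called in the interaction. Of 8 regulators 4 rose from 0 to 60 min in flu/ex1/ydl1, where 9.6% of the tested loci were called higher. In flu/ex1 2 were called higher at 30 min than in darkness, where 0.649% of loci were called in either direction, and 0 at 60 min. ANAC102 (5.13 ± 0.42, adjusted p = 1.23e-06), ANAC032 (4.71 ± 0.41, adjusted p = 1.53e-06) and ATAF1 (3.08 ± 0.34, adjusted p = 9.37e-06) are NAC transcription factor genes, and all 3 were called in the interaction. GRX480, the gene of a glutaredoxin that binds TGA factors, had 0 counts in darkness and 158 at 60 min in flu/ex1/ydl1. Between genotypes at 60 min 4 of the 8 regulators were called higher. The TGA factor genes TGA2 (-0.40 ± 0.36), TGA5 (-0.14 ± 0.42) and TGA6 (0.02 ± 0.36) and the listed regulator SCL14 (0.45 ± 0.38) were not called.

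**Figure D4:**
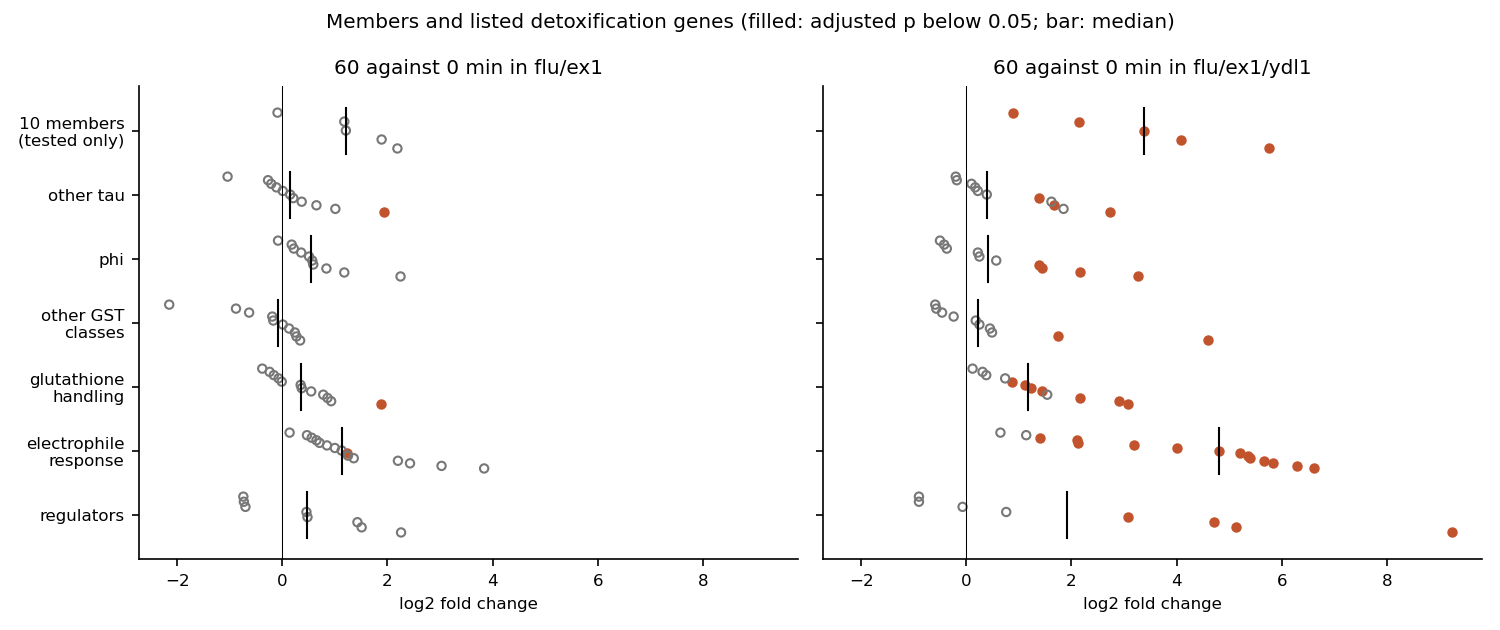
Fitted log2 fold change from 0 to 60 min of light (horizontal axis) in flu/ex1 on the left and flu/ex1/ydl1 on the right, with 1 point per tested gene, rows for the 5 tested members and 6 lists of related genes, filled points for an edgeR adjusted p below 0.05 and bars at the median. The medians of the members are 1.21 and 3.39, and those of the electrophile list 1.13 and 4.80, while the point beyond 9 is GRX480, whose dark level was 0 counts, so that its fold change has no fixed size.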

How the data were processed

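Each library has 1 deposited file, which holds unnormalised read counts by locus. Per the submitters' processing notes, the authors trimmed reads with Trimmomatic, ran FastQC, aligned to TAIR10 with TopHat2 2.1.1 and counted with featureCounts. Which annotation and strand setting they counted with, and how they treated reads matching several loci, is not given in the sources used here. Gene models, names and promoters come from RefSeq's TAIR10.1, in which 36632 of 36917 loci were found.

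Loci were kept by filterByExpr (minimum count 10, minimum total 15), which left 17879. The 6 groups of genotype and file-name time, with 2 libraries each, were fitted together in edgeR 4.0.16 (R 4.3.3) with TMM scaling and quasi-likelihood F tests. The SE beside an edgeR log2 fold change is its absolute size divided by the square root of the F statistic. It is therefore not the spread of the 2 libraries of a group. For each of 11 comparisons the Benjamini-Hochberg adjustment ran over all tested loci, and an adjusted p below 0.05 made a call. Positive values mean higher in flu/ex1/ydl1 or at the later time. The fit was tested on simulated data. Groups without a count were set to a floor of 3 (over the whole group), and ratios of counts have exact 95% intervals. Likeness used log2 CPM (prior count 2) of loci averaging 1 CPM or more, and coding sequences were aligned in pairs. The rule for names took all members, the 3 loci most like each tested member and up to 4 genes per list with the smallest p, of which the text gives a part. Of 79 listed genes, 2 were dropped because the reference does not give their symbol.

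The members and lists were chosen with earlier results of these data known. The alternatives were labelled times, DESeq2 1.42.0, its size factors, no filter, nuclear loci only, only the groups compared, blocks by replicate number and by file-name prefix, and each library left out.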

Additional observations from a re-analysis of the deposited data

How the results depend on the processing

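Counts here are of the 5 tested members called (of 10 without the filter). With labelled times, alone or with a replicate block, 0 were called between genotypes at 60 min and 0 from 0 to 60 or 30 to 60 min in flu/ex1/ydl1, and the late change of GSTU5 reversed to -0.55 and -0.98. The late changes of GSTU24 (-0.78 and -0.89), GSTU4 (-0.08 and -0.44) and GSTU1 (-0.07 and -0.46), not called in either grouping, also fell below 0, as did the genotype difference of GSTU5 at 60 min (-0.01 and -0.56). The labelled groups hold other libraries by construction. DESeq2 called 2 between genotypes at 60 min and 1 from 0 to 60 min in flu/ex1. Of all loci it called 8.41% and 2.52%, in either direction as for the shares that follow. Without the filter the calls were 7 between genotypes at 60 min (6.98% of loci). In flu/ex1 they were 1 and 3 at 30 and 60 min against 0 min (1.16% and 2.25%). In flu/ex1/ydl1 they were 2 at 30 min (4.13%) and 5 from 30 to 60 min (1.3%). The interaction at 60 min had 1 (2.84%). With only the groups compared, 1 was called in flu/ex1/ydl1 at 30 min, where 6.63% of loci were. The file-name replicate numbers did not pair the libraries (correlations of same-numbered deviations -0.18 to 0.28). With the replicate block 1 member was called from 0 to 60 min in flu/ex1, GSTU5 (1.57 ± 0.25, edgeR adjusted p = 0.00663), where 1.24% of loci were. No other count of members moved by over 1.5 times. Leaving out each library gave 0 to 5 calls between genotypes at 60 min, 3 to 5 from 0 to 60 min and 0 to 2 from 30 to 60 min in flu/ex1/ydl1, and 0 to 1 from 0 to 30 min in flu/ex1/ydl1 (1 without either flu/ex1 60 min library), from 0 to 60 min in flu/ex1 (1 without either flu/ex1/ydl1 60 min library) and in the interaction at 60 min (1 without flu/ex1 60 min replicate 3). The lone library left in a group was assumed to vary like the others. The cause of these changes was not tested. The 5 members below the filter have few counts, so their differences rest on few reads.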
